A study of Homo sapiens with 12 samples.

Results

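The 10 genes described here encode receptor tyrosine kinases other than TYRO3, namely EGFR, ERBB2, ERBB3, MET, IGF1R, KIT, PDGFRB, FGFR1, EPHA2 and DDR1. They were taken by gene symbol from a list of names, and all 10 were found among the 35579 genes to which the transcripts were summed. Their mRNA was measured by sequencing of polyadenylated RNA in WM-266-4, a human melanoma cell line. All the cells carried a stable lentiviral knock-down of TYRO3 and were then transfected with a pEZY-myc-his plasmid that encoded GFP as the control, wild-type (WT) TYRO3, TYRO3 ΔGS or TYRO3 ΔADAM, and starved of serum overnight. TYRO3 ΔGS carries the substitution I449A and resists cleavage by gamma-secretase, and TYRO3 ΔADAM carries P408A, L409P and G419P and resists shedding by ADAM proteases (positions in the TYRO3 protein). Each of 3 experiments gave 1 library per group, so that each of the 4 groups had 3 libraries, and p-values measure the spread between these experiments in 1 cell line. The study elsewhere describes a control plasmid that was empty, whereas the sample labels name GFP. The comparisons address whether the other receptors of the cell differed in mRNA level when TYRO3 was expressed from a plasmid, above the TYRO3 that the knock-down left, and whether it mattered that TYRO3 could be cleaved.

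Receptor tyrosine kinases bind a ligand outside the cell, pair up in the membrane and phosphorylate each other on tyrosines, to which adaptor proteins such as GRB2 and SHC1 bind and pass the signal to RAS and PI3 kinase. TYRO3, AXL and MERTK form the TAM family, and the genes described here belong to other families. In pigment cells KIT, the receptor of stem cell factor, is required for melanocytes to develop and survive, and its expression is often lost as melanomas progress. ERBB3, MET, IGF1R, PDGFRB, EGFR and FGFR1 are known from melanoma as receptors that can sustain growth when BRAF is inhibited.

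The total of the estimated counts was 4008293 in the GFP library of experiment 1 and between 18365999 and 38184838 in the other 11 libraries. Levels are given below as CPM, the estimated count scaled to the library total after TMM normalisation, and the 3 values of a group stand in the order of experiments 1, 2 and 3. TYRO3 was at 53.03, 47.3 and 56.6 CPM with GFP and rose to 3064, 1791 and 1369 CPM with WT TYRO3, 3694, 1436 and 1648 CPM with ΔGS TYRO3 and 3284, 1215 and 1181 CPM with ΔADAM TYRO3, so that the GFP and the TYRO3 libraries separated as labelled and experiment 1 had the highest level of each construct. The levels of the 3 constructs overlapped, and the gene count does not tell them apart. All 12 of 12 melanocyte markers passed the filter on low counts, and their summed level was 1726 to 2067 TPM (an abundance per transcript length that has the same total in every library) with GFP, 1161 to 2083 TPM with WT, 1194 to 1707 TPM with ΔGS and 1204 to 1751 TPM with ΔADAM TYRO3. Of 11 markers of other cell types 5 did not pass, among them PTPRC with at most 0.562 TPM in any library and KRT5, which was at 0 in all 12, whereas LUM reached 84.5 TPM and CD68 52.6 TPM.

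ERBB3, a receptor for neuregulins whose own kinase is weak, was the most abundant of the 10 receptors. Its mRNA was at 150.4, 129 and 109 TPM in the GFP libraries, and among 57 receptor tyrosine kinase genes other than TYRO3 it had the highest TPM in 12 of 12 libraries. MET, the receptor of hepatocyte growth factor, followed at 36.1, 45.3 and 43.3 TPM with GFP. ERBB2, the partner receptor of ERBB3 that has no ligand of its own, was at 29.1, 30.01 and 29.8 TPM and EPHA2, a receptor of ephrin-A ligands, at 26.98, 31.7 and 29.4 TPM. These last receptors overlapped in the GFP libraries, and ERBB2 lay above EPHA2 in 2 of 12 libraries. DDR1, which binds collagen, was at 16.7, 25.4 and 28.95 TPM. These values leave out 16 transcripts, not summed to any gene, whose lengths and counts matched those of DDR1 transcripts. With them DDR1 was at 30.1, 46.2 and 41.0 TPM with GFP, so that its place in the order depends on them. IGF1R, the receptor of insulin-like growth factors, was at 24.5, 19.1 and 11.8 TPM. FGFR1, a receptor of fibroblast growth factors, was lower at 13.5, 9.99 and 9.65 TPM.

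The rarest mRNAs of the 10 were those of KIT, PDGFRB, the receptor of platelet-derived growth factor BB, and EGFR, the receptor of EGF, TGF-alpha and amphiregulin. KIT was at 2.70, 2.67 and 1.76 TPM and PDGFRB at 2.58, 1.86 and 1.38 TPM in the GFP libraries, and these ranges overlapped, with KIT above PDGFRB in 7 of 12 libraries. EGFR was at 0.714, 0.763 and 0.165 TPM and was the lowest of the 10 in 12 of 12 libraries. In the GFP library of experiment 1 EGFR rested on 5 counts, with an exact Poisson interval (95%) of 1.62 to 11.7 counts, and PDGFRB on 6 counts (2.20 to 13.1), and these intervals cover counting error only. In order of GFP mean TPM, the neighbours whose ranges did not overlap were ERBB3 and MET, MET and ERBB2, FGFR1 and KIT, and PDGFRB and EGFR. Together the 10 receptors made up between 42.6% and 49.7% of the summed TPM of the 57 genes in each library. Both this order and this share use DDR1 without the 16 transcripts not summed to any gene.

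For KIT, MET, IGF1R and DDR1 annotated isoforms differ by 1 coding segment, printed here because it decides which form of the receptor the cells make. The segments are printed with 9 bases of the coding sequence on each side (GENCODE 29, GRCh38, plus strand), and the capitals mark the bases that KIT-201, MET-201, IGF1R-201 and DDR1-239 have and KIT-202, MET-202, IGF1R-206 and DDR1-227 lack. All 4 segments keep the reading frame and add 4 residues in KIT, 18 in MET, 1 in IGF1R and 37 in DDR1.
KIT chr4:54726039-54726050: catttaaagGTAACAACAAAGagcaaatcc
MET chr7:116759337-116759390: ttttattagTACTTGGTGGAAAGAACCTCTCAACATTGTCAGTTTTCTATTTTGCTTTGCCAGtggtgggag
IGF1R chr15:98929558-98929560: aggccaaaaCAGgatatgaaa
DDR1 chr6:30895404-30895514: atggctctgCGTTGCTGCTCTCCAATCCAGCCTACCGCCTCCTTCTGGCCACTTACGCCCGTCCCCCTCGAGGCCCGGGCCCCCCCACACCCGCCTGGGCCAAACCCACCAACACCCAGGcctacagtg

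For each segment the TPM of the coding transcripts that hold it was set against the TPM of those that code on both sides of it and lack it. The shares below are of these transcripts and not of all TPM of the gene. The KIT segment, which encodes part of the stretch just outside the membrane, was in 70.6% to 85.6% of KIT with GFP, 74.4% to 100% with WT, 77.0% to 100% with ΔGS and 72.3% to 79.6% with ΔADAM TYRO3. In 3 libraries no count was assigned to the form without the segment. MET was almost wholly without its segment, which was in 0% to 3.27% of MET with GFP and in 0.682% to 4.54% with TYRO3. The IGF1R segment was in 61.6% or less of the IGF1R transcripts compared in the ΔGS and ΔADAM libraries and in 48.2% to 70.2% with WT TYRO3. With GFP it was in 99.99%, 60.8% and 73.0% in experiments 1, 2 and 3. The highest of these was the shallow GFP library of experiment 1, and the difference was not tested. In that library the IGF1R transcripts compared had 11.3 TPM with and 0.0007 TPM without the segment, of 24.5 TPM of IGF1R. With GFP the DDR1 segment was in 58.8% to 93.5% of the DDR1 transcripts compared. It was in 63.0% to 68.0% with WT, 60.0% to 91.6% with ΔGS and 63.7% to 93.2% with ΔADAM TYRO3. Experiment 3 had the lowest share in each group but WT. In the WT library of experiment 1 these transcripts had 12.5 TPM with and 5.89 TPM without the segment, of 31.9 TPM of DDR1. The DDR1 shares leave out 16 transcripts, not summed to any gene, whose lengths and counts matched those of DDR1 transcripts. Adding them raised the TPM of DDR1 by 1.42 to 1.97 times, and their effect on the shares was not tested. These shares come from the division of reads between transcripts by kallisto, whose error is not in the files used.

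**Figure D1:**
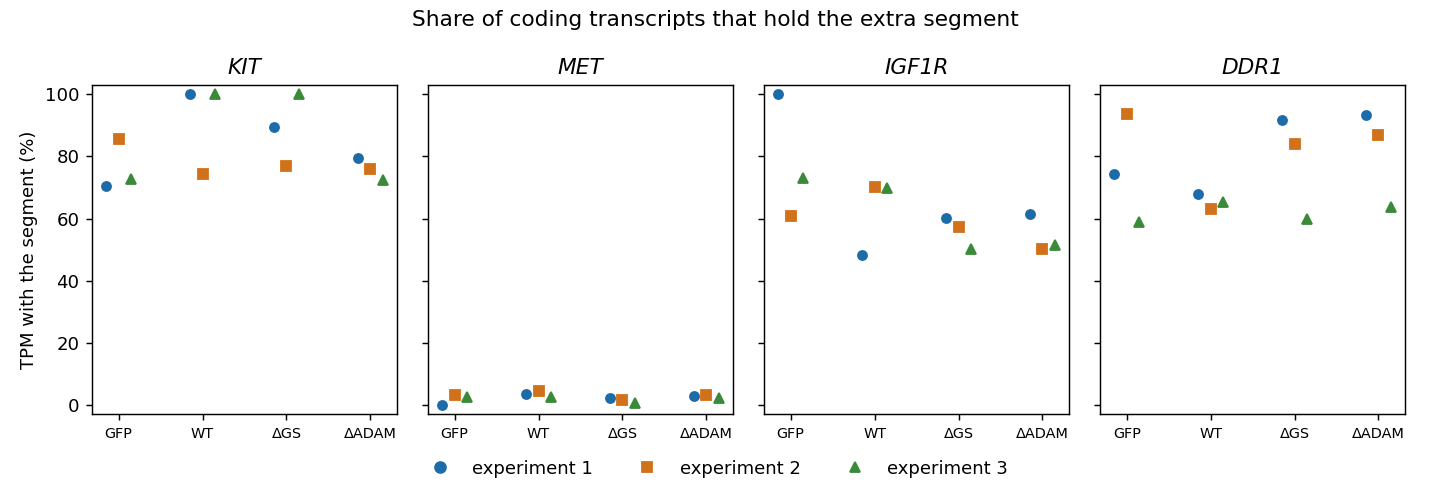
Share of TPM (%) with the extra segment among the transcripts of KIT, MET, IGF1R and DDR1 that code on both sides of it. There is 1 point per library in the 4 groups, with the experiment by colour and shape. Nearly all MET lacks the segment, most KIT holds it, and IGF1R and DDR1 show both forms.

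Some receptors were carried by a single main transcript and others by many. EPHA2-201 held a median of 96.5% of the TPM of EPHA2, MET-202 91.0% of MET, KIT-201 76.4% of KIT and EGFR-201 70.1% of EGFR. The leading transcript of ERBB3 (ERBB3-201, 41.7%), ERBB2 (ERBB2-204, 41.6%), PDGFRB (PDGFRB-201, 41.3%) and DDR1 (DDR1-239, 33.6%) held less than 50% of its gene, and those of IGF1R (IGF1R-201, 30.5%) and FGFR1 (FGFR1-207, 17.9%) less still. The share of DDR1-239 is of the transcripts summed to DDR1 and leaves out those not summed to any gene. Of the transcripts of the 10 receptors that were tested, 0 were called with all TYRO3 constructs against GFP in edgeR, where the background was 0.00578% of 69182 transcripts. EPHA2-201 had a log2 fold change of 0.60 ± 0.17 (SE) and an adjusted p of 0.425 over all transcripts, and FGFR1-207 had 0.88 ± 0.34 and 0.598.

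None of the 10 receptors was called in any of the 6 comparisons. A call needed an adjusted p of 0.05 or less and more than 1.5-fold in the quasi-likelihood test of edgeR, fitted to 15098 genes with experiment 1 set apart from experiments 2 and 3 by a term of its own. Over all genes tested the share called was 0.0397% with WT TYRO3 against GFP, 0.457% with ΔGS TYRO3, 1.11% with ΔADAM TYRO3 and 3.31% with the mean of all TYRO3 constructs against GFP, shares from which less than 1 call in 10 genes follows. At an unadjusted p under 0.05 the receptors were FGFR1 and EPHA2, 2 of 10, in each of these comparisons, against 2300, 2895, 3087 and 3655 of all genes. In RNA from whole cultures a large difference in few cells and a small one in all cells cannot be told apart. The 4 receptors whose mRNA differed most from GFP were EGFR, FGFR1 and EPHA2, which were higher, and KIT, which was lower. With a term for each experiment, which uses the pairing of the libraries by experiment, EGFR was called as higher with ΔADAM TYRO3 and with all TYRO3 constructs, where 5.19% and 5.68% of all genes were called and 3.15% and 3.48% as higher. In that fit 0 of 10 were called with WT and with ΔGS TYRO3 (background 2.35% and 4.69%). DESeq2 with the same term called EGFR as higher with WT (background 2.52%), with ΔADAM (3.67%) and with all constructs (3.76%), and KIT as lower with all constructs (2.21%). The median log2 fold change of the 10 with all TYRO3 constructs was 0.12 and 7 of 10 were above 0, whereas the median of all genes was -0.00 with 49.7% above 0. Positions of the genes are those of GENCODE 29 on GRCh38, with the strand.

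**Figure D2:**
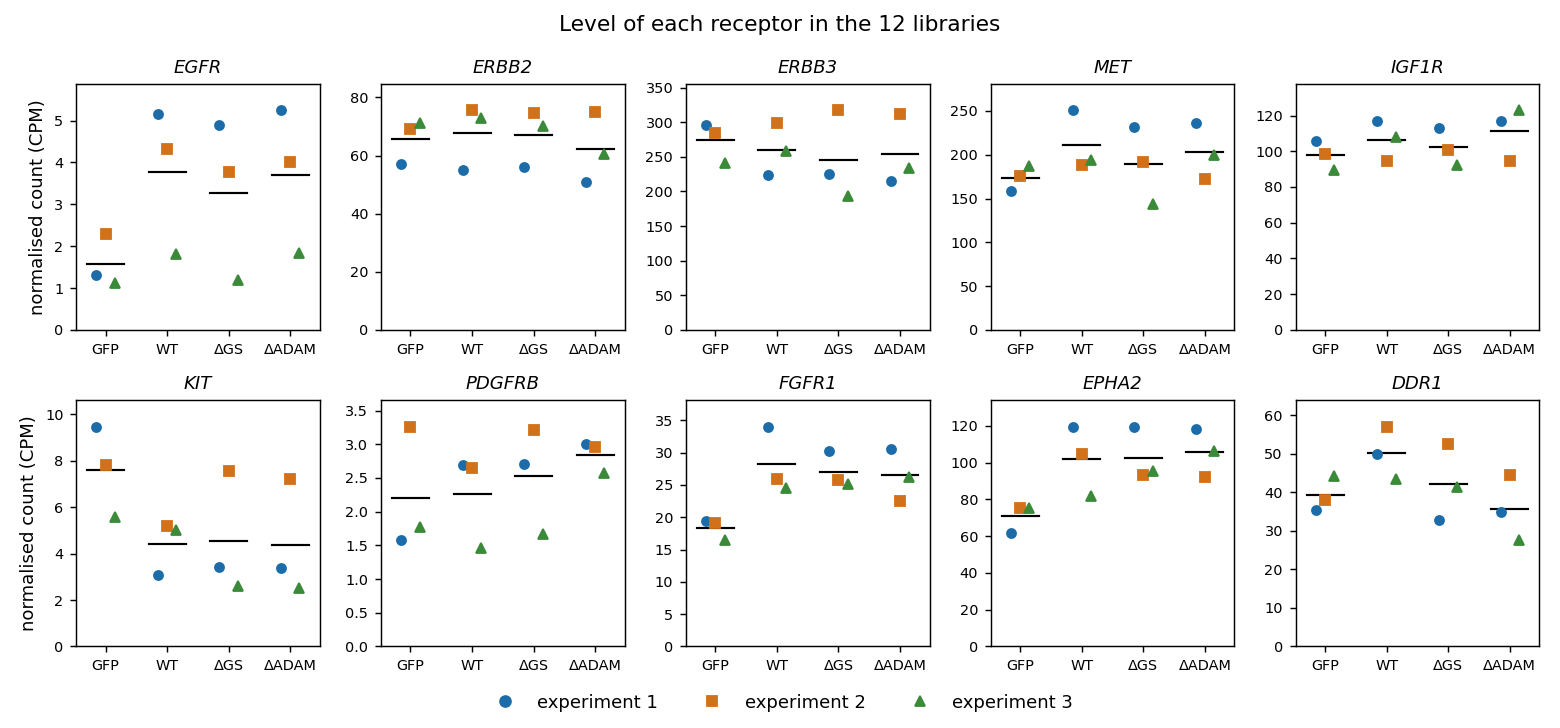
Normalised count (CPM, linear axes from 0) of each receptor in the 4 groups, with 1 point per library, the colour and shape giving the experiment and the bar the mean of 3. FGFR1 and EPHA2 lie higher in all 9 TYRO3 libraries than in the 3 GFP libraries, whereas the groups of the other receptors overlap in at least 1 construct.

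FGFR1 (chr8:38400215-38468834, minus strand) differed from GFP with the smallest adjusted p of the 10. It was at 19.5, 19.1 and 16.5 CPM with GFP, 34.02, 25.9 and 24.5 CPM with WT, 30.3, 25.7 and 25.1 CPM with ΔGS and 30.6, 22.6 and 26.3 CPM with ΔADAM TYRO3. The 9 TYRO3 libraries all lay above the 3 GFP libraries. With all constructs the log2 fold change was 0.55 ± 0.09 (SE), a fold of 1.46, with an adjusted p of 0.0144 in edgeR, and it was not called because the fold stayed under 1.5. The constructs taken singly gave 0.59, 0.54 and 0.51 for WT, ΔGS and ΔADAM TYRO3 (adjusted p = 0.086, 0.0531 and 0.0469). Without a fold threshold the background was 6.53% of all genes for all constructs and 1.4% for ΔADAM TYRO3. The value with all constructs was 0.54 with a term for each experiment (adjusted p = 0.00401). In the fit with experiment 1 set apart it was 0.51 without the GFP library of experiment 1 (adjusted p = 0.108). That fit gave 0.51 without the GFP library of experiment 3 (adjusted p = 0.0531) and 0.64 without that of experiment 2 (adjusted p = 0.0287), when FGFR1 was called. With a term for each experiment, leaving out the GFP library of experiment 1, 2 and 3 in turn gave 0.50, 0.65 and 0.50. The adjusted p was 0.0226, 0.00862 and 0.0301 (edgeR), and FGFR1 was called without that of experiment 2.

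EPHA2 (chr1:16124337-16156087, minus strand) gave 61.8, 75.4 and 75.2 CPM with GFP, 119.6, 105 and 81.8 CPM with WT, 119, 93.4 and 95.5 CPM with ΔGS and 118, 92.1 and 106 CPM with ΔADAM TYRO3. All 9 TYRO3 libraries again lay above the 3 GFP libraries, and the 3 TYRO3 libraries of experiment 1 were the highest. The log2 fold change with all constructs was 0.52 ± 0.12 (SE), a fold of 1.43, with an adjusted p of 0.0316 in edgeR, and the fold was under the threshold here too. It was 0.50, 0.51 and 0.55 with WT, ΔGS and ΔADAM TYRO3 (adjusted p = 0.151, 0.095 and 0.0709). Without the GFP library of experiment 1, in which EPHA2 was lowest, the value with all constructs was 0.36 (adjusted p = 0.204). It was 0.59 without that of experiment 2 (adjusted p = 0.0617) and 0.59 without that of experiment 3 (adjusted p = 0.0692). In this fit the adjusted p was thus above 0.05 whichever GFP library was left out. With a term for each experiment the value was 0.51 (edgeR, adjusted p = 0.0160). Without the GFP library of experiment 1, 2 and 3 in turn, that paired fit gave 0.36, 0.59 and 0.61 (adjusted p = 0.0749, 0.0330 and 0.0332). EPHA2 was called there without that of experiment 2 or 3. A count of 2 of 10 receptors with no overlap between the 3 GFP and the 9 TYRO3 libraries, both higher, compares with 5.06% of all genes that did so.

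EGFR (chr7:55019021-55211628, plus strand) stood at 1.31, 2.29 and 1.11 CPM with GFP, 5.16, 4.31 and 1.82 CPM with WT, 4.89, 3.77 and 1.18 CPM with ΔGS and 5.25, 4.02 and 1.84 CPM with ΔADAM TYRO3. Within each experiment the GFP library was the lowest, but experiment 3 was low in all groups, so that the groups overlapped. The log2 fold change with all constructs was 0.90 ± 0.45 (SE), a fold of 1.87, with an adjusted p of 0.244. With the pairing by experiment it was 0.91 ± 0.22 (SE), and EGFR rose in this fit (edgeR, adjusted p = 0.0186). In the same fit EGFR rose with ΔADAM TYRO3 (0.98, adjusted p = 0.0332), whereas WT TYRO3 gave 1.00 (adjusted p = 0.0526) and ΔGS TYRO3 0.75 (adjusted p = 0.0862). Without the GFP library of experiment 1, with its 5 counts of EGFR, the paired fit gave 0.72 (adjusted p = 0.0601), and without that of experiment 2 it gave 1.01 (adjusted p = 0.0676), so that the call rested on each of these libraries. On the scale of TPM the difference was smaller. EGFR had a higher TPM than GFP in 8 of 9 pairs, and limma on log2(TPM + 0.1) gave 0.39 with an adjusted p of 0.623.

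ERBB2 and ERBB3, of the same receptor family as EGFR, did not differ from GFP by more than the spread between libraries. ERBB2 (chr17:39687914-39730426, plus strand) was at 57.1, 69.3 and 71.1 CPM with GFP, 54.9, 75.7 and 73.1 CPM with WT, 56.2, 74.6 and 70.00 CPM with ΔGS and 50.9, 74.9 and 60.6 CPM with ΔADAM TYRO3, and its libraries were ordered by experiment rather than by construct, with experiment 1 the lowest in every group. Its log2 fold change with all constructs was -0.01 with a 95% interval from -0.17 to 0.16, the narrowest of the 10, which leaves out a fold change of 1.5 in either direction. ERBB3 (chr12:56076799-56103505, plus strand) gave 296, 285 and 241 CPM with GFP, 224, 298 and 258 CPM with WT, 225, 318 and 193 CPM with ΔGS and 216, 311 and 234 CPM with ΔADAM TYRO3. The TYRO3 libraries of experiment 1 lay below their GFP library and those of experiment 2 above it. With all constructs ERBB3 was -0.12 (95% interval -0.46 to 0.21, adjusted p = 0.681 in edgeR).

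KIT (chr4:54657918-54740715, plus strand) was not called in any comparison of this fit, but it was the receptor whose mRNA was lowest relative to GFP. Its values were 9.47, 7.82 and 5.56 CPM with GFP, 3.08, 5.19 and 5.02 CPM with WT, 3.40, 7.54 and 2.62 CPM with ΔGS and 3.36, 7.20 and 2.50 CPM with ΔADAM TYRO3. In each experiment all 3 TYRO3 libraries lay below the GFP library, by little in experiment 2 with ΔGS and ΔADAM TYRO3 and in experiment 3 with WT TYRO3. Only the WT libraries were all below the GFP libraries, as were 10.8% of all genes. The log2 fold change with all constructs was -0.75 ± 0.36 (SE), with an adjusted p of 0.238, and -0.74 with the pairing by experiment (edgeR, adjusted p = 0.0803). Leaving out the GFP library of experiment 1, where KIT was highest with 36 counts, brought it to -0.41 (adjusted p = 0.720). MITF, the transcription factor that governs melanocyte genes, fell with all constructs by 1.95-fold (adjusted p = 0.0163), and its part in the level of KIT was not tested. PDGFRB (chr5:150113837-150155872, minus strand), of the same receptor family, was at 1.58, 3.26 and 1.77 CPM with GFP, 2.69, 2.65 and 1.46 CPM with WT, 2.71, 3.21 and 1.66 CPM with ΔGS and 3.01, 2.96 and 2.57 CPM with ΔADAM TYRO3. Its groups overlapped, and its log2 fold change with all constructs was 0.08 with a 95% interval from -0.57 to 0.73. With the pairing by experiment it was 0.09 (95% interval -0.35 to 0.54, edgeR, unadjusted p = 0.916). This interval is narrower than the p of the same test implies, so it is not read as leaving out a fold of 1.5. The direction also depended on the scale. By TPM PDGFRB was lower than GFP in 8 of 9 pairs (median log2 difference -0.40), whereas by CPM it was higher in 4 of 9.

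MET (chr7:116672390-116798386, plus strand) was at 159, 176 and 187 CPM with GFP, 251, 188 and 194 CPM with WT, 232, 192 and 144 CPM with ΔGS and 236, 173 and 200.3 CPM with ΔADAM TYRO3. The WT libraries lay above the GFP libraries, as did 9.99% of all genes, and those of the variants overlapped with GFP. With all constructs the log2 fold change was 0.18 (95% interval -0.09 to 0.45, adjusted p = 0.413 in edgeR) and it was 0.02 without the GFP library of experiment 1. IGF1R (chr15:98648539-98964530, plus strand) stayed near its GFP level in every group, with 106, 98.2 and 89.4 CPM with GFP, 117, 94.5 and 108 CPM with WT, 113, 101 and 92.2 CPM with ΔGS and 117, 94.3 and 123 CPM with ΔADAM TYRO3. Its groups overlapped and its log2 fold change with all constructs was 0.12 (95% interval -0.07 to 0.32).

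DDR1 (chr6:30876421-30900156, plus strand) gave 35.4, 37.99 and 44.2 CPM with GFP, 49.9, 57.00 and 43.3 CPM with WT, 32.8, 52.4 and 41.3 CPM with ΔGS and 34.9, 44.4 and 27.7 CPM with ΔADAM TYRO3. Against GFP it stood at 0.36 with WT, 0.10 with ΔGS and -0.13 with ΔADAM TYRO3 on the log2 scale (adjusted p = 0.406, 0.827 and 0.767 in edgeR). These values depend on which transcripts are counted as DDR1. A further 16 transcripts that have no match in GENCODE 29 had the same length as, and in all 12 libraries the same count within 0.001 as, 6 transcripts of DDR1, and adding them raised the TPM of DDR1 by 1.42 to 1.97 times. With them, an alternative added after seeing the data, the log2 fold changes were 0.34, 0.16 and 0.11, so that the direction with ΔADAM TYRO3 turned, and no comparison was called. No other of the 10 receptors had such transcripts.

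**Figure D3:**
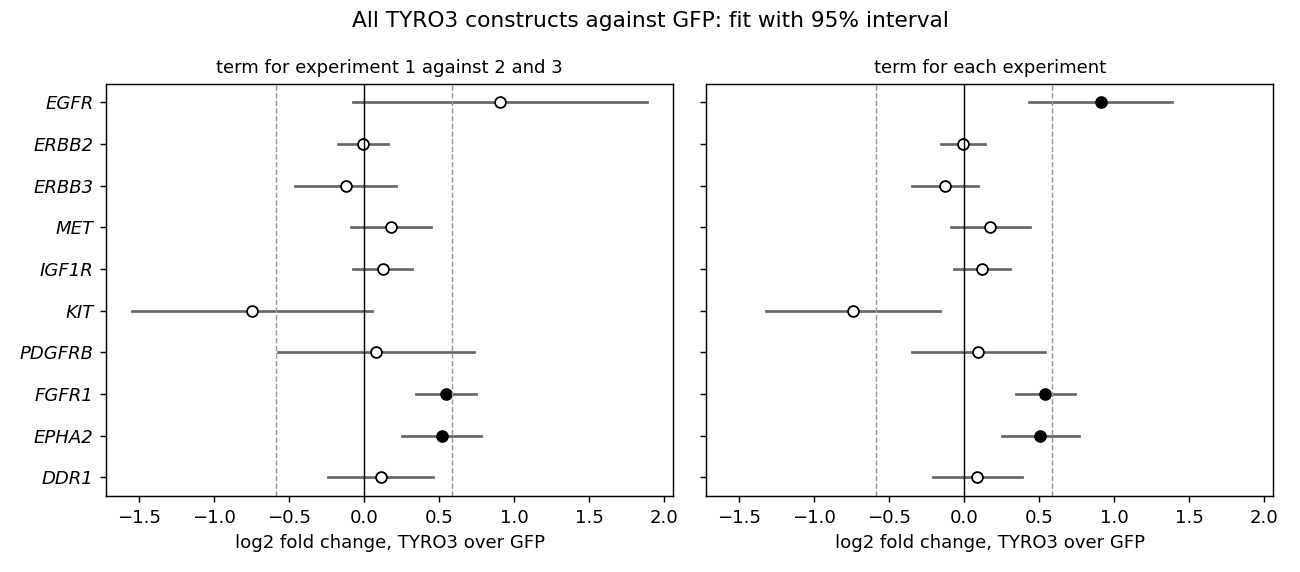
Log2 fold change of each receptor with all TYRO3 constructs against GFP and its 95% interval, in edgeR with experiment 1 set apart (left) and with every experiment given its own term (right). Filled points have an adjusted p of at most 0.05 and the dashed lines mark a fold of 1.5, which the filled point of EGFR passes on the right and those of FGFR1 and EPHA2 do not reach.

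The 3 experiments differed in the size of these differences. Each TYRO3 library was set against the GFP library of its own experiment, which gives 9 differences per receptor that share 3 GFP libraries. EGFR, FGFR1 and EPHA2 were higher in 9 of 9, as were 12.7% of all genes, and KIT was lower in 9 of 9, as were 13.8%. For EGFR the mean log2 difference was 1.89 in experiment 1, 0.79 in experiment 2 and 0.48 in experiment 3. For EPHA2 it was 0.95, 0.36 and 0.32, for KIT -1.51, -0.25 and -0.78, and for FGFR1 0.70, 0.37 and 0.62. Experiment 1 had both the highest TYRO3 and the shallowest GFP library, and their part in these differences was not tested. MET and IGF1R were higher in 7 of 9, and ERBB2, ERBB3, PDGFRB and DDR1 in 4 of 9.

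**Figure D4:**
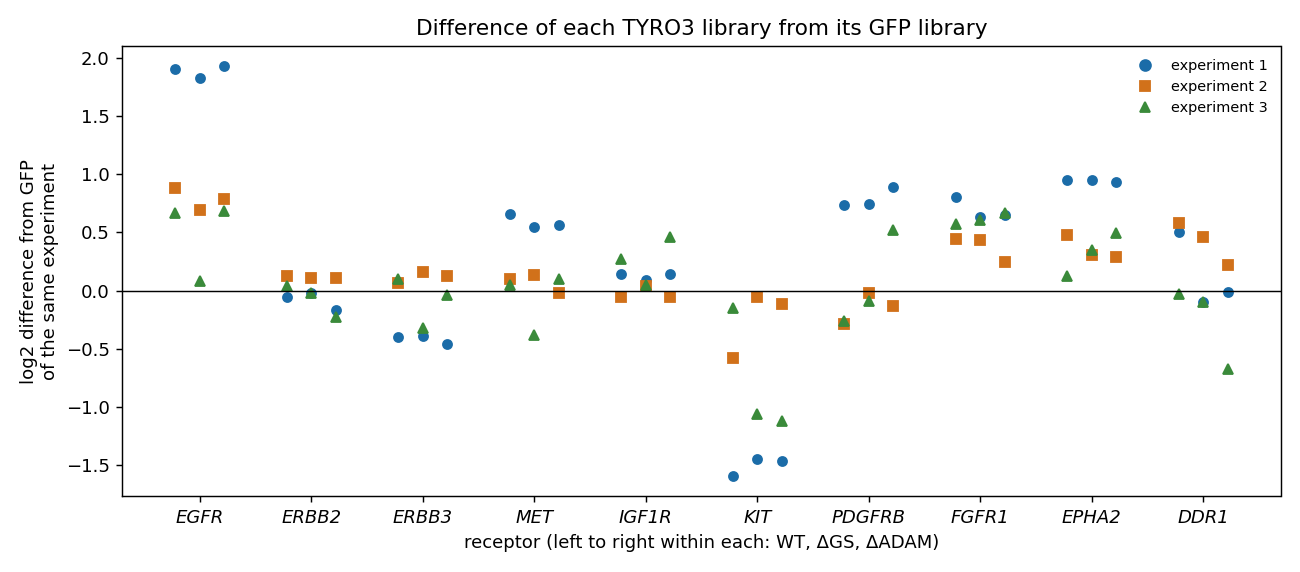
Log2 difference in CPM of each TYRO3 library from the GFP library of its own experiment, with WT, ΔGS and ΔADAM from left to right for each receptor and the experiment by colour and shape. The 9 points of EGFR, FGFR1 and EPHA2 lie above 0 and those of KIT below 0, and for EGFR, EPHA2 and KIT the points of experiment 1 lie farthest from 0.

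No receptor passed the test between the cleavable and the resistant forms of TYRO3. In WT TYRO3 against both variants 0 of 10 were called, and 0 of 15098 genes (background 0%), with 119 genes and 1 receptor, DDR1, at an unadjusted p under 0.05. DDR1 was higher with WT by 0.38 on the log2 scale (95% interval 0.02 to 0.73, adjusted p = 1 in edgeR), and by 0.20 when the unmatched transcripts were added. For FGFR1 the difference was 0.07 (-0.13 to 0.26), for EPHA2 -0.03 (-0.30 to 0.24), for ERBB2 0.07 (-0.10 to 0.24), for ERBB3 0.06 (-0.30 to 0.41), for MET 0.11 (-0.17 to 0.39) and for IGF1R -0.00 (-0.21 to 0.20), intervals that leave out a fold of 1.5 in either direction. For EGFR it was 0.12 (-0.79 to 1.03), for PDGFRB -0.25 (-0.91 to 0.41) and for KIT -0.01 (-0.85 to 0.84), which do not. With the pairing by experiment EGFR was at 0.13 (-0.29 to 0.56), which leaves out a fold of 1.5, whereas PDGFRB at -0.27 (-0.71 to 0.18) and KIT at 0.12 (-0.49 to 0.73) still did not. In ΔGS against ΔADAM TYRO3 0 of 10 were called as well, as was no gene (background 0%), with 119 genes and 0 receptors at an unadjusted p under 0.05. The differences of the 10 ranged from -0.18 for EGFR to 0.23 for DDR1. With a term for each experiment edgeR called 0 genes in both comparisons.

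Among the listed receptor tyrosine kinases other than TYRO3, 40 of 57 were tested, and 7 of the 30 that are not among the 10 were called with all TYRO3 constructs against GFP, 3 as higher and 4 as lower (background 3.31%). AXL, of the TAM family, was at 86.5, 68.8 and 55.1 CPM with GFP and rose 1.75-fold (edgeR, adjusted p = 0.0246), whereas its relative MERTK, at 19.5, 18.8 and 22.04 CPM with GFP, fell 1.86-fold (adjusted p = 0.0175). DDR2, the other collagen receptor beside DDR1, rose 1.93-fold from 147, 150.1 and 168 CPM (adjusted p = 0.0289). FGFR4 fell 1.61-fold (adjusted p = 0.0146) from 46.5, 39.6 and 47.1 CPM while FGFR1 was higher, and EPHA3 fell 2.26-fold (adjusted p = 0.02) from 87.05, 83.97 and 66.5 CPM while EPHA2 was higher. FLT1 (higher, 1.72-fold) and ROR1 (lower, 1.74-fold) made up the 7 and are named after their values were seen. Without the GFP library of experiment 1 that experiment had no control. A single gene of all those tested, TYRO3 included, was then called in this comparison, so that at least 6 of the 7 calls were lost. Without the GFP library of experiment 2 or 3 the number was 283 or 235 genes. With a term for each experiment 12 of the 40 were called, 6 higher and 6 lower, EGFR among them.

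**Figure D5:**
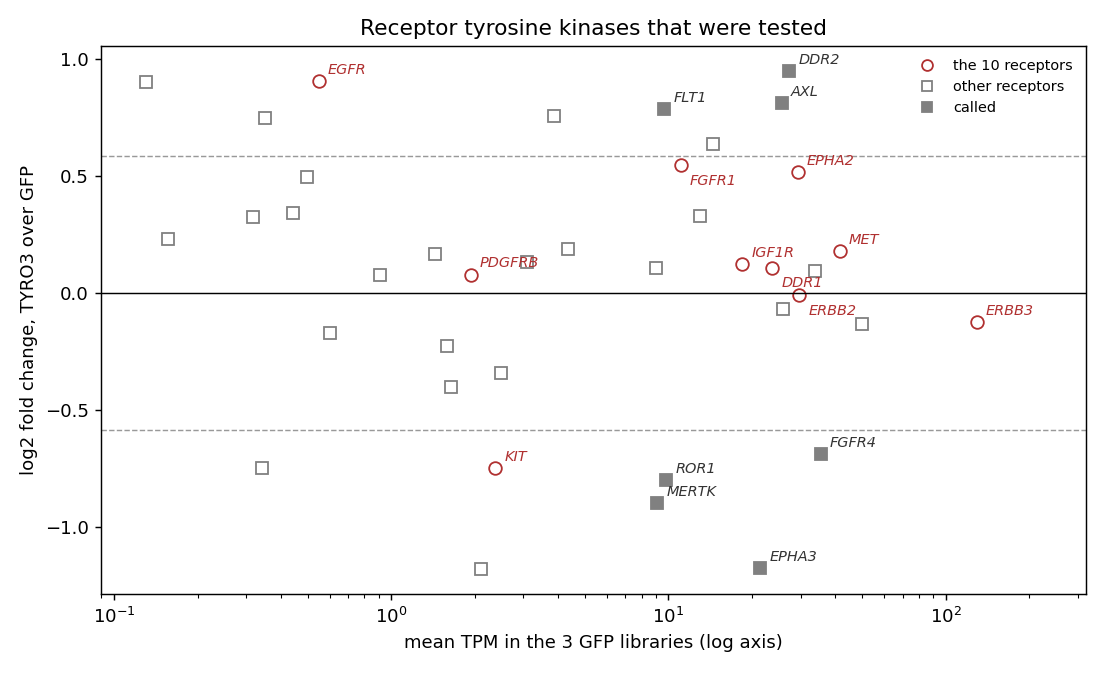
Log2 fold change with all TYRO3 constructs against GFP (edgeR, experiment 1 set apart) by mean TPM in the 3 GFP libraries, log axis, for the 40 receptor tyrosine kinases other than TYRO3 that were tested. Circles are the 10 receptors, all open because none was called, squares are the others with the 7 called filled, and dashed lines mark a fold of 1.5.

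Ligands of these receptors were tested for 26 of 32 listed genes, and 3 were called with all TYRO3 constructs against GFP (background 3.31%), all as higher. Of the other 6, IGF2, a ligand of IGF1R, was left out because its symbol stands for 2 genes in the annotation. Amphiregulin (AREG), a ligand of EGFR, was at 1.84, 1.86 and 1.26 CPM with GFP, 6.21, 5.86 and 2.13 CPM with WT, 6.77, 5.83 and 3.45 CPM with ΔGS and 6.49, 4.24 and 2.54 CPM with ΔADAM TYRO3 and rose 2.66-fold (edgeR, adjusted p = 0.0383). Every TYRO3 library was above every GFP library, which also held for 5.06% of all genes. In the GFP library of experiment 1, where EGFR at 1.31 CPM rested on 5 counts, AREG too rested on few counts. NRG1, a ligand of ERBB3, rose 1.68-fold from 13.8, 14.5 and 17.1 CPM (adjusted p = 0.0332), and PDGFB, whose product binds PDGFRB, rose 1.93-fold from 7.10, 6.07 and 4.70 CPM (adjusted p = 0.0206). With a term for each experiment EGF was called as lower with ΔGS TYRO3 (log2 fold change -0.62, adjusted p = 0.0401) and NRG4, a ligand of ERBB4, as lower with WT TYRO3 (-0.63, adjusted p = 0.037). The median log2 fold change of the 26 ligands with all constructs was -0.00. Without the GFP library of experiment 1 a total of 1 gene was called, TYRO3 included in those tested, so that at least 2 of the 3 ligand calls were lost.

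Of the adaptors and other proteins that bind activated receptors, 19 of 20 were tested and 1 was called with all constructs, a share near the 3.31% of all genes. It was GAB2, a docking protein of GRB2 and PI3 kinase, which fell 1.58-fold from 76.5, 85.1 and 62.1 CPM (edgeR, adjusted p = 0.026). GRB10, which binds IGF1R, was called as higher with a term for each experiment (background 5.68%, 1.70-fold, adjusted p = 0.0119). Of the genes that restrain receptors 19 of 20 were tested and again 1 was called, also near that background. It was RNF41, a ubiquitin ligase that directs ERBB3 to degradation, which rose 1.61-fold from 34.7, 40.6 and 37.6 CPM (adjusted p = 0.0322). Of the melanocyte markers GPM6B, DCT and MITF were called as lower (3 of 12, background 3.31%), and of the 6 markers of other cell types that were tested 1, LUM, was called as lower. These calls too were made with the GFP library of experiment 1 in the fit, and the count over all genes without it was 1. Without that of experiment 2 or 3 the count with all constructs was 283 or 235.

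The gene most like each receptor over the 12 libraries was found by the Pearson correlation of log2 CPM after the mean of each experiment was removed, which is a description over libraries that share their control and their depth. It was ZC3HAV1 for EGFR (r = 0.99), ANTXR2 for FGFR1 (r = 0.98), SERP1 for EPHA2 (r = 0.99), HOMER1 for MET (r = 0.99), AC125611.2 for KIT (r = 0.98), ZNF891 for PDGFRB (r = 0.97), DDX12P for ERBB3 (r = 0.96) and TNRC6C for IGF1R (r = 0.95). DDR1 and ERBB2 had the weakest best match, C4orf33 (r = 0.90) and KRBA1 (r = 0.89).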

How the data were processed

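Polyadenylated RNA of 12 libraries was sequenced by the authors as stranded 75-base pairs. The authors trimmed reads with PRINSEQ and Trimmomatic 0.33 and ran kallisto 0.46.0 against Ensembl 96 (GRCh38). The deposited values are the estimated counts and TPM per transcript made by the authors, before the batch correction and normalisation that the study describes.

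Of 188753 transcripts 169797, with 97.41% to 97.53% of the counts, had an identifier of GENCODE 29 (version dropped) and were summed per gene. Counts were rounded and fitted in edgeR 4.0.16 (R 4.3.3) with TMM, filterByExpr (minimum count 10, minimum total 15) and the terms group and experiment 1 against 2 and 3, with Benjamini-Hochberg adjustment over 15098 genes. A term for each experiment, for libraries that the labels put in 1 experiment, was an alternative. Deviations from group means within an experiment correlated between libraries at 0.04 to 0.53. Others were DESeq2 1.42.0, limma 3.58.1 on log2(TPM + 1) and log2(TPM + 0.1), other scaling, filter and fold settings, and libraries left out.

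Genes named were the 10 receptors, TYRO3, at most 5 called genes from each of 4 lists by smallest adjusted p with all constructs, the most alike gene and the leading transcripts. The receptors and lists were chosen with earlier results of these data known. On simulated counts for all TYRO3 constructs against GFP (14905 and 14906 genes) edgeR recovered 66.5% of 200 genes changed 2-fold and 35.5% of 200 changed 1.5-fold, at an adjusted p of at most 0.05. No fold threshold was applied there, and the simulated means held no difference between experiments. The recovery under the call rule used for the receptors was therefore not measured. Tables and figures used Python 3.11.15, pandas 2.3.3, scipy 1.17.1 and matplotlib 3.10.9.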

Additional observations from a re-analysis of the deposited data

Results flagged for a closer look

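Transcripts that were not summed to any gene, because they have no match in GENCODE 29, carried signal equal to that of some DDR1 transcripts. The 16 transcripts with the length and, within 0.001, the counts of 6 DDR1 transcripts summed to at least 9.95 TPM in each of the 12 libraries, the GFP libraries included. They were left out of the main value of DDR1, and its fold changes with them are given in the report as an alternative.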

How the results depend on the processing

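With a replicate block (a term for each experiment, which uses the pairing) the genes called with WT, ΔGS, ΔADAM and all constructs against GFP were 355, 708, 784 and 857 in place of 6, 69, 168 and 500. The block added EGFR, 1 receptor each with ΔADAM and all constructs, and changed no other call among the 10. DESeq2 called 374, 607, 671 and 751 genes, 1 in WT against both variants and 3 transcripts of the receptors (ERBB2-203, ERBB3-202 and FGFR1-201). DESeq2 with the block called 610, 837, 894 and 901 genes, 5 in WT against both variants, 1 in ΔGS against ΔADAM, and 1 receptor with WT, 1 with ΔADAM and 2 with all constructs. No filter gave 562, 765, 879 and 933 genes, 6 and 5 between constructs, and 1 receptor (FGFR1) with WT. No term for experiment 1 gave 3, 4, 5 and 19, and experiments 2 and 3 alone 1, 1, 1 and 1. limma called 2, 1 and 43 genes with WT, ΔGS and ΔADAM on log2(TPM + 1) and 2, 6 and 20 on log2(TPM + 0.1). No fold threshold gave 986 genes with all constructs, 1 receptor with ΔADAM and 2 with all constructs.

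Leaving out 1 library gave 1 to 20 genes with WT, 1 to 137 with ΔGS, 1 to 449 with ΔADAM and 1 to 610 with all constructs, the last lowest without the GFP library of experiment 1, and 0 to 0 and 0 to 1 between constructs. The receptors called ranged from 0 to 1 with all constructs and from 0 to 0 elsewhere, and their transcripts from 0 to 0. With the block and 1 library left out, EGFR with all constructs kept its call in 10 of 12 fits, and calls were added for FGFR1 (without GFP of experiment 2), EPHA2 (without GFP of experiment 2 or 3) and KIT (without WT of experiment 3). The alternatives DESeq2 with the block and those with the block and 1 library left out were chosen after seeing the data. The depth of 4008293 counts in the GFP library of experiment 1 limits what can be said of EGFR, PDGFRB and KIT, and of the ligand AREG.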
